A study of Mus musculus with 6 samples.

Results

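The genes described here encode enzymes that add or remove chemical marks on histones and DNA. They were taken from the count table by gene symbol, as the families of lysine demethylases (Kdm), acetyltransferases (Kat), deacetylases (Hdac, Sirt), lysine and arginine methyltransferases (Kmt, Setd, Setdb, Ezh with Suz12 and Eed, Ehmt, Suv39h, Nsd, Dot1l, Prmt) and DNA methyltransferases and TET dioxygenases. Of 56734 symbols in the table, 88 matched and 86 had a mean of at least 10 counts over the 6 libraries. All 86 were among the 17718 genes with enough counts to be tested. The other 2 were Kdm4d, with 0, 8 and 0 counts in Ythdf2-KO replicates 1 to 3 and 2, 8 and 5 counts in WT replicates 1 to 3, and the Y-linked Kdm5d, with 0 counts in every library, which allows up to 0.0433 to 0.0540 CPM (counts scaled to a common library total).

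The libraries came from B16-OVA, a mouse melanoma line that carries chicken ovalbumin as a model antigen, grown in culture: 3 from Ythdf2-KO cells, whose titles carry the tag gY2, and 3 from WT cells, whose titles carry gNC. Both groups share the ovalbumin gene and the medium, and the labels do not say whether the Ythdf2-KO cells are a single clone or whether replicates are separate cultures, so p-values measure the spread between these libraries only. The comparison asks how the RNAs of the tumor cells differ when YTHDF2, a reader of N6-methyladenosine (m6A) that promotes decay of marked mRNAs, is lost. Totals ranged from 61167059 to 69497273 counts in Ythdf2-KO and from 55660473 to 68739046 in WT.

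Histone marks act by loosening or compacting chromatin and by giving reader proteins a place to bind. Acetyl groups are added by acetyltransferases and removed by deacetylases; methyl groups are added by SET-domain and PRMT enzymes and removed by amine oxidases and by JmjC dioxygenases, which need oxygen, iron and 2-oxoglutarate. DNA methylation is copied by DNMT1, set by DNMT3A and DNMT3B with the cofactor DNMT3L, and oxidised by the TET enzymes. Several of these enzymes, EZH2 and the KDM5 family among them, are known for their part in melanoma growth and in the switch between melanoma cell states.

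Ythdf2 itself stood at 100.1, 101 and 104 CPM in replicates 1 to 3 of Ythdf2-KO, against 124, 124 and 125 CPM in those of WT. All Ythdf2-KO libraries lay below all WT libraries, with a log2 fold change of -0.29 ± 0.0265 (SE; quasi-likelihood test of edgeR, adjusted p by Benjamini-Hochberg = 4.08e-13). Levels are CPM scaled by TMM factors, which set the bulk of genes equal between libraries; upper-quartile and RLE factors do so by other summaries. Counts summed per gene do not show how the gene was edited, nor the protein. Of the RNA measures that moved with genotype, mitochondrially encoded genes took 1.57 to 1.82% of the counts in Ythdf2-KO and 1.08 to 1.33% in WT, and Malat1, a nuclear RNA, stood at 576 to 722 CPM in Ythdf2-KO and 376 to 511 CPM in WT. Their part in the results below was not tested. All 7 melanocyte markers rose in Ythdf2-KO, and their summed level was 1401 to 1431 CPM in Ythdf2-KO against 237 to 241 CPM in WT; in bulk RNA, fewer cells of a type and less RNA per cell cannot be told apart. The 10 leukocyte markers summed to 37.4 to 40.2 CPM in Ythdf2-KO and 38.7 to 40.1 CPM in WT, with Ncr1 at 0 in every library. The 4 endothelial markers summed to 1.71 to 2.17 CPM in Ythdf2-KO and 2.53 to 2.66 CPM in WT, and the 4 epithelial markers to 0.173 to 0.659 CPM in Ythdf2-KO and 0.0360 to 0.214 CPM in WT. The 6 fibroblast markers summed to 3912 to 3974 CPM in Ythdf2-KO and 3469 to 3568 CPM in WT, most of it Col6a3, which rose with Pdgfra, Pdgfrb and Fap, while Lum fell 2.56-fold and Dcn 11.7-fold, to 41.5 ± 0.735 CPM in Ythdf2-KO against 487 ± 8.10 CPM in WT (SD, n = 3; edgeR adjusted p = 9.53e-55).

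Of the 86 enzymes, 23 were higher and 25 lower in Ythdf2-KO at an adjusted p under 0.05, together 55.8%, against 49.9% of all genes tested (24.1% higher and 25.8% lower). Over all genes tested, those not called had a median level of 1.87 CPM. The enzymes were better expressed than most genes, with a median of 62.1 CPM against 12.8 CPM over all genes tested. Among genes with a mean of at least 5 CPM, 44 of 79 enzymes were called (55.7%), against 65.0% of all such genes. Unless stated, the shares set beside each role below are over all genes tested and are not matched for level. The median log2 fold change was -0.023 over the 86 enzymes and -0.0053 over all genes tested. The differences were small: 5 of the 86 enzymes were called and at least 1.5-fold apart, 5.81%, against 15.0% of all genes tested. At a mean of at least 5 CPM only Kdm7a was, 1 of 79 (1.27%) against 8.74% of all genes. The groups did not overlap for 57 of the 86 enzymes (66.3%), 25 with every Ythdf2-KO library above every WT library and 32 below, against 55.9% of all genes tested. The latter share was not taken among genes of at least 5 CPM, so the 2 shares are not matched for level.

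**Figure D1:**
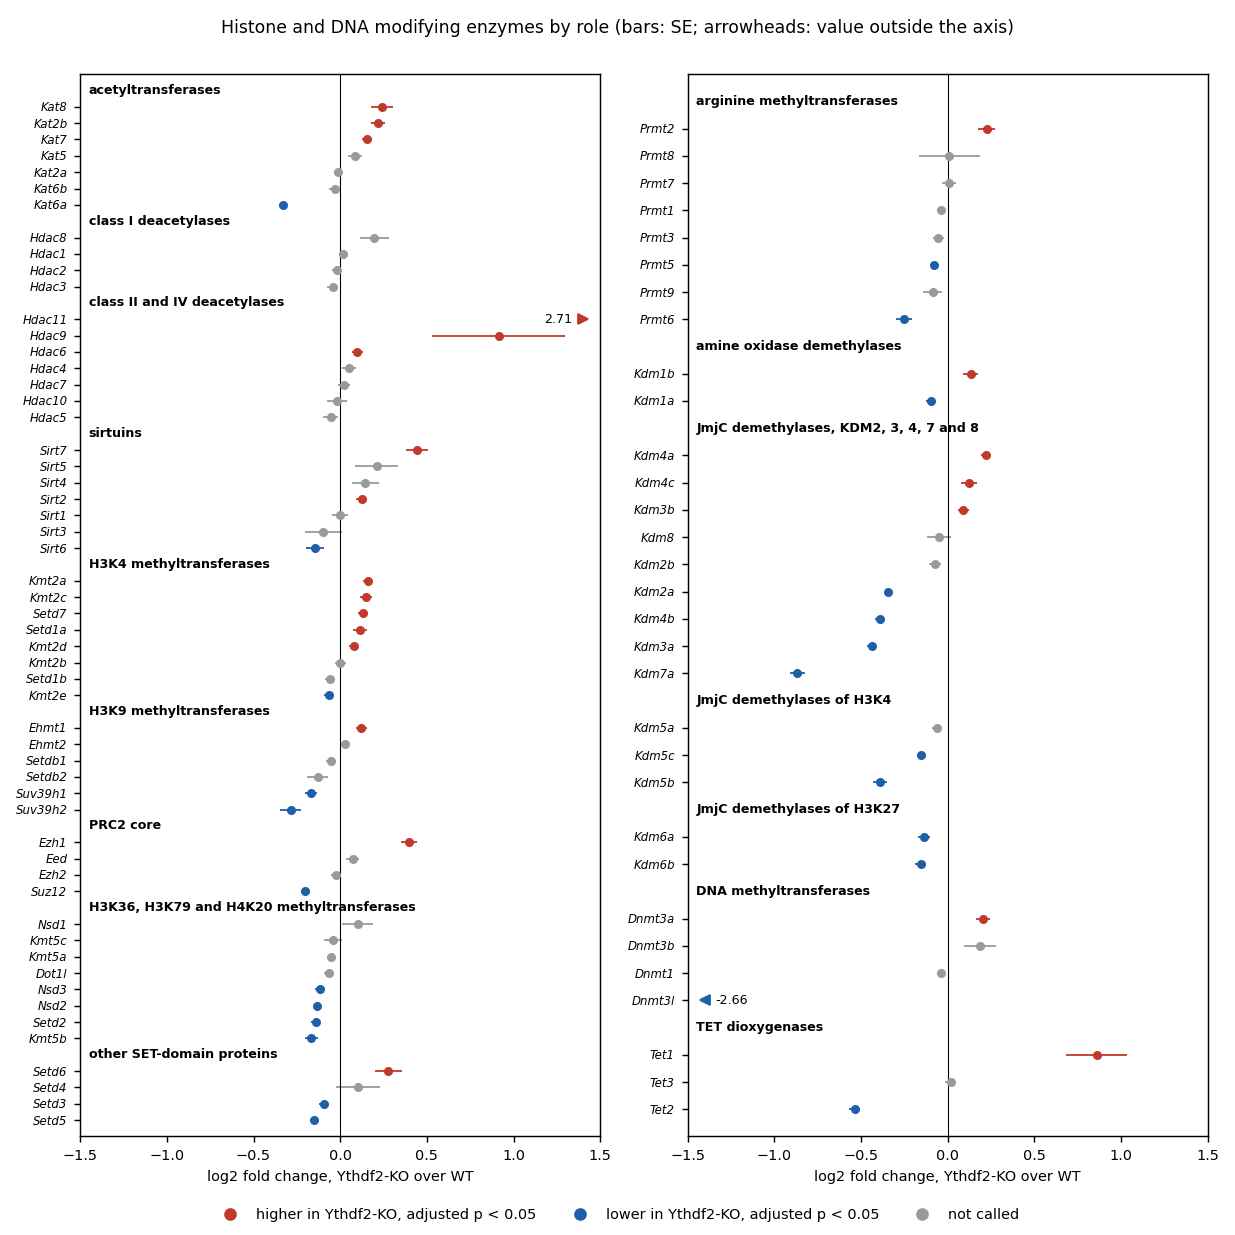
Log2 fold change (Ythdf2-KO over WT, x axis) of each of the 86 enzymes, grouped by role; points are fitted values, bars their SE, and colours give the call at an adjusted p under 0.05. Most values lie near 0, while Hdac11 at 2.71 and Dnmt3l at -2.66 lie outside the axis.

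Enzymes of DNA methylation differed most in Dnmt3l, which encodes a catalytically inactive partner that stimulates the de novo methyltransferases and is best known from germ cells. It stood at 1.32, 0.939 and 1.47 CPM in replicates 1 to 3 of Ythdf2-KO, against 8.64, 6.93 and 8.13 CPM in those of WT. Every Ythdf2-KO library was below every WT library, with a log2 fold change of -2.66 ± 0.136 (SE; edgeR adjusted p = 4.52e-21), a 6.31-fold fall. In GENCODE annotation, exons of Dnmt3l overlap those of Aire on the opposite strand, and Aire fell 4.52-fold (edgeR adjusted p = 2.40e-20), to 3.12 ± 0.158 CPM in Ythdf2-KO against 14.2 ± 2.24 CPM in WT (SD, n = 3). The sources used here do not give whether counting used strand, so reads of the 2 genes cannot be told apart where they overlap.

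The other DNA methyltransferases moved little. Dnmt1, the maintenance enzyme, had 234, 232 and 233 CPM in the Ythdf2-KO libraries and 239, 239 and 238 CPM in the WT libraries. Its Ythdf2-KO libraries lay just below the WT libraries, but the difference did not pass the test (log2 fold change -0.036 ± 0.0219, SE; edgeR adjusted p = 0.179). Offsets that remove a smooth trend of each library's counts with exon-union length (all annotated exons of a gene merged) and GC content called Dnmt1 lower (-0.091; edgeR adjusted p = 2.72e-04). Upper-quartile factors put it at 0.018, not called. Dnmt3a, a de novo methyltransferase, had 49.6, 49.6 and 46.6 CPM in the Ythdf2-KO libraries and 41.9, 42.7 and 42.0 CPM in the WT libraries. All Ythdf2-KO libraries were above the WT libraries, a 1.15-fold rise (log2 fold change 0.20 ± 0.0378, SE; edgeR adjusted p = 1.21e-05). This call was lost with the length and GC offsets, at a log2 fold change of 0.047 (edgeR adjusted p = 0.318). Its paralog Dnmt3b had 7.51, 7.66 and 7.25 CPM in the Ythdf2-KO libraries and 5.94, 6.37 and 7.33 CPM in the WT libraries, and the groups overlapped (log2 fold change 0.19 ± 0.0925, SE; edgeR adjusted p = 0.0903). It passed without WT replicate 3 (edgeR adjusted p = 0.0204), with upper-quartile factors (edgeR adjusted p = 0.0301) and among genes of at least 5 CPM (edgeR adjusted p = 0.0412). Per kilobase of exon, Dnmt1 was the most abundant of the 4 RNAs, at 31.6 ± 0.116 CPM per kb in Ythdf2-KO and 32.3 ± 0.109 CPM per kb in WT (SD, n = 3 each). Dnmt3a followed at 2.92 ± 0.104 CPM per kb in Ythdf2-KO and 2.53 ± 0.0247 CPM per kb in WT, and Dnmt3b stood at 1.46 ± 0.0408 CPM per kb in Ythdf2-KO and 1.28 ± 0.139 CPM per kb in WT. Dnmt3l changed place in this order, with 0.416 ± 0.0918 CPM per kb in Ythdf2-KO and 2.64 ± 0.293 CPM per kb in WT: in WT its level lay within 1 SD of that of Dnmt3a, and in Ythdf2-KO it was the lowest.

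Of the TET dioxygenases, which oxidise 5-methylcytosine, Tet2 fell and Tet1 rose. Tet2 had 65.8, 67.3 and 64.1 CPM in the Ythdf2-KO libraries and 93.9, 91.3 and 101 CPM in the WT libraries. Every Ythdf2-KO library was below every WT library, and the level fell to 68.9% of that in WT (log2 fold change -0.54 ± 0.0329, SE; edgeR adjusted p = 4.83e-18). Tet1, a gene at low level in these cells, had 2.31, 2.75 and 2.48 CPM in the Ythdf2-KO libraries and 1.30, 1.59 and 1.27 CPM in the WT libraries. All Ythdf2-KO libraries were above the WT libraries, a 1.81-fold rise (log2 fold change 0.86 ± 0.174, SE; edgeR adjusted p = 4.76e-05). Tet3 had 75.2, 81.3 and 80.2 CPM in the Ythdf2-KO libraries and 76.6, 78.8 and 78.2 CPM in the WT libraries, with overlapping groups (log2 fold change 0.019 ± 0.0314, SE; edgeR adjusted p = 0.666). With length and GC offsets Tet3 was lower in Ythdf2-KO, at a log2 fold change of -0.15 (edgeR adjusted p = 5.88e-05), and upper-quartile factors called it higher, at 0.072 (edgeR adjusted p = 0.0488). Per kilobase, Tet2 stood at 3.90 ± 0.0954 CPM per kb in Ythdf2-KO and 5.65 ± 0.295 CPM per kb in WT, and Tet3 at 4.73 ± 0.193 CPM per kb in Ythdf2-KO and 4.66 ± 0.0660 CPM per kb in WT (SD, n = 3 each), so that Tet2 was the higher of the pair in WT and Tet3 in Ythdf2-KO, while Tet1 was far below both, at 0.163 ± 0.0144 CPM per kb in Ythdf2-KO and 0.0896 ± 0.0114 CPM per kb in WT.

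**Figure D2:**
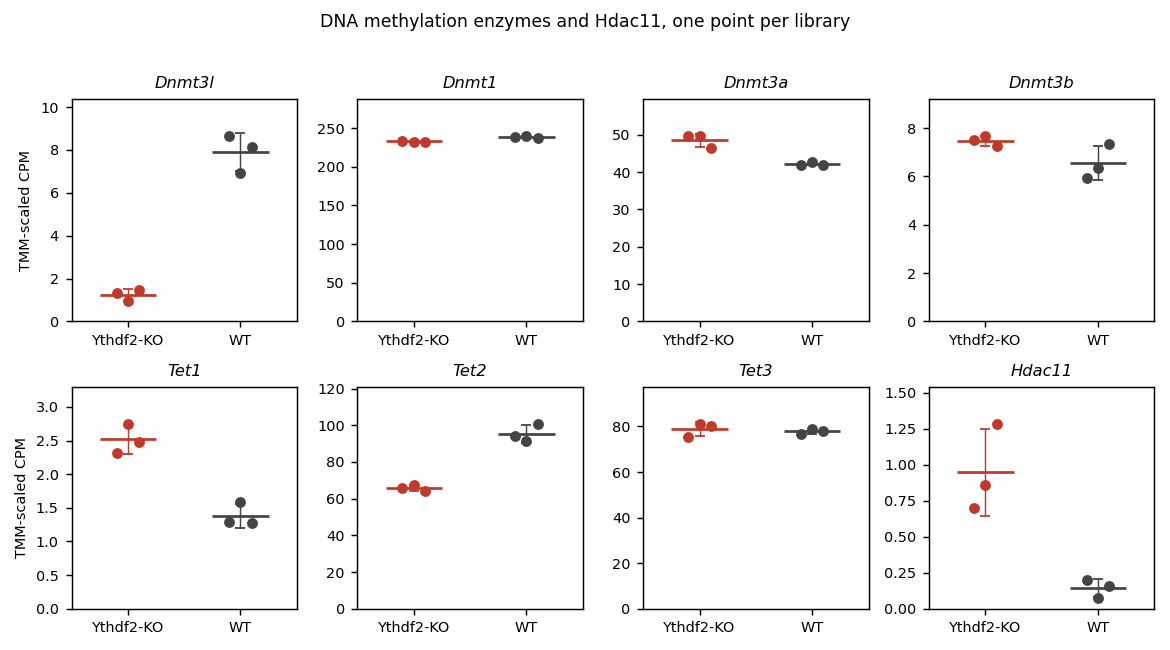
TMM-scaled CPM (y axis, from 0) of the DNA methyltransferases, the TET dioxygenases and Hdac11 in each Ythdf2-KO and WT library; points are libraries, horizontal lines means and bars SD. Dnmt3l and Tet2 are lower and Tet1 and Hdac11 higher in every Ythdf2-KO library, while Dnmt1 and Tet3 differ by a log2 fold change of -0.036 and 0.019.

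Among the JmjC demethylases of the KDM2, KDM3, KDM4, KDM7 and KDM8 families, which act mainly on methylated H3K9, H3K36 and H3K27, 4 of 9 fell, 3 rose and 2 were not called, against 25.8% lower and 24.1% higher over all genes tested. The median log2 fold change was -0.073. Kdm7a, which removes methyl groups from H3K9 and H3K27, fell furthest. It stood at 26.5, 28.7 and 26.7 CPM in replicates 1 to 3 of Ythdf2-KO, against 50.6, 50.1 and 48.6 CPM in those of WT. The groups were far apart beside the spread within each, and 54.8% of the WT level was left (log2 fold change -0.87 ± 0.0417, SE; edgeR adjusted p = 1.90e-22).

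Kdm3a, an H3K9 demethylase known to be induced by hypoxia, had 132, 127 and 129 CPM in the Ythdf2-KO libraries and 178, 172 and 177 CPM in the WT libraries. Kdm4b, an H3K9 demethylase also known as a target of hypoxia-inducible factor (HIF), had 83.4, 82.1 and 84.2 CPM in the Ythdf2-KO libraries and 108, 110.0 and 110.0 CPM in the WT libraries. In both genes every Ythdf2-KO library lay below every WT library, with falls of 1.35- and 1.31-fold (log2 fold changes -0.44 ± 0.0249 and -0.39 ± 0.0276, SE; edgeR adjusted p = 8.31e-20 and 1.47e-16). Kdm2a, an H3K36 demethylase that binds unmethylated CpG islands, had 226, 231 and 227 CPM in the Ythdf2-KO libraries and 289, 291 and 291 CPM in the WT libraries, a 1.27-fold fall without overlap (log2 fold change -0.35 ± 0.0218, SE; edgeR adjusted p = 3.74e-18).

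Paralogs within the KDM3 and KDM4 families were called in the other direction. Kdm4a rose 1.16-fold, with 134, 136 and 136 CPM in the Ythdf2-KO libraries and 117, 117 and 116 CPM in the WT libraries and no overlap (log2 fold change 0.22 ± 0.0253, SE; edgeR adjusted p = 4.86e-10). Kdm4c, another HIF target, was at 33.7 ± 1.48 CPM in Ythdf2-KO and 30.9 ± 0.826 CPM in WT (SD, n = 3; edgeR adjusted p = 0.0192), a rise of 0.12 on the log2 scale. That call was lost without WT replicate 2 or Ythdf2-KO replicate 2 (edgeR adjusted p = 0.0545 and 0.145). Kdm3b was at 65.6 ± 1.05 CPM in Ythdf2-KO and 61.6 ± 1.61 CPM in WT (SD, n = 3; edgeR adjusted p = 0.0201), a rise of 0.090. It was lost without any of WT replicate 3 and Ythdf2-KO replicates 1 and 2 (edgeR adjusted p = 0.0637 to 0.0773), and with length and GC offsets its log2 fold change was -0.048 (edgeR adjusted p = 0.220). Kdm8 did not pass, nor did Kdm2b, the paralog of Kdm2a (-0.073; edgeR adjusted p = 0.0587). Of 22 subfamilies of close paralogs, 4 had members called in opposite directions: KDM1, KDM3, KDM4 and TET. The differences between paralogs were not tested.

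**Figure D3:**
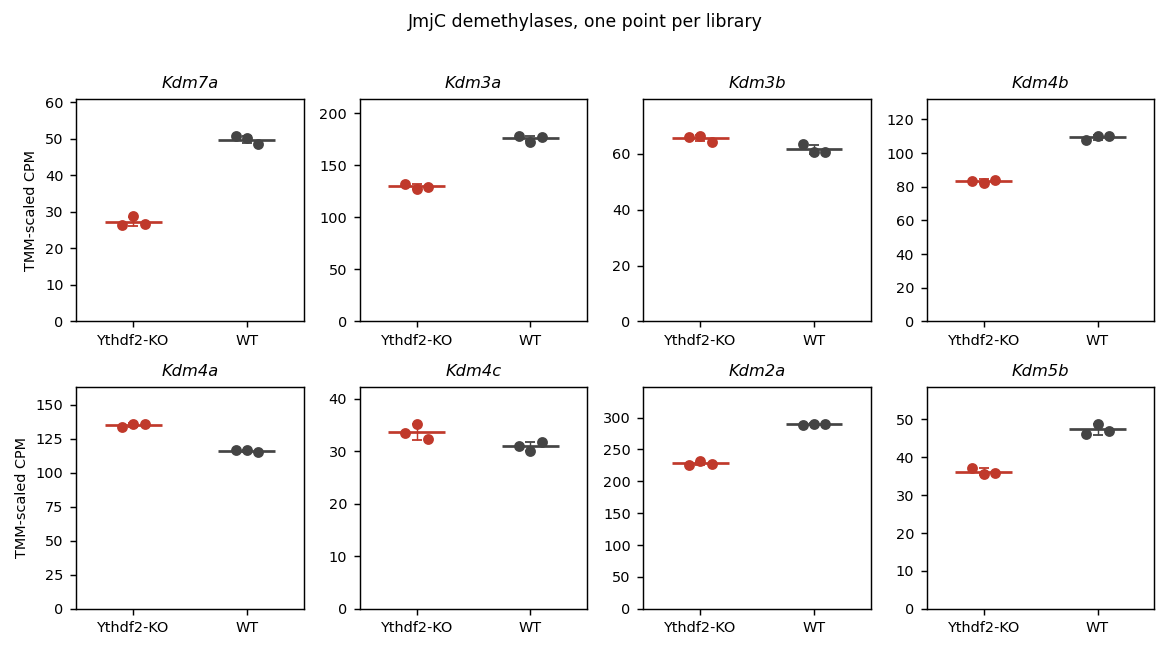
TMM-scaled CPM (y axis, from 0) of 8 JmjC demethylase genes in each Ythdf2-KO and WT library; points are libraries, horizontal lines means and bars SD. Kdm7a, Kdm3a, Kdm4b, Kdm2a and Kdm5b are lower in every Ythdf2-KO library, and their paralogs Kdm3b, Kdm4a and Kdm4c are higher.

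The KDM5 enzymes, which demethylate H3K4, fell in 2 of 3 cases, against 25.8% lower over all genes tested. Kdm5b, known from slow-cycling melanoma cells, had 37.2, 35.5 and 35.8 CPM in the Ythdf2-KO libraries and 46.2, 48.9 and 47.0 CPM in the WT libraries, a 1.31-fold fall without overlap (log2 fold change -0.39 ± 0.0393, SE; edgeR adjusted p = 1.09e-11). Kdm5c, its X-linked paralog, was at 278 ± 6.71 CPM in Ythdf2-KO and 309 ± 6.33 CPM in WT (SD, n = 3), a log2 fold change of -0.16 ± 0.0228 (SE; edgeR adjusted p = 1.11e-07). Kdm5a did not pass, though it did without WT replicate 1 (edgeR adjusted p = 0.0444). Of the amine oxidases, Kdm1a, which encodes the H3K4 demethylase LSD1, fell with a log2 fold change of -0.096 (edgeR adjusted p = 0.00221) and Kdm1b rose by 0.13 (edgeR adjusted p = 0.00880). The call of Kdm1a was lost without WT replicate 2 (edgeR adjusted p = 0.0604) and under upper-quartile factors (edgeR adjusted p = 0.166), and that of Kdm1b without Ythdf2-KO replicate 2 (edgeR adjusted p = 0.0598).

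Kdm3a and Kdm5b are both reported as HIF targets, and HIF binds the core ACGTG or GCGTG. The second form was searched after the shares of the first were known. Of the other HIF targets named above, Kdm4b fell (log2 fold change -0.39) and Kdm4c rose (0.12), and their promoters are not shown. The promoters of Kdm3a and Kdm5b are shown because both genes fell. Each is the 250 bases before a start that RefSeq lists (build GRCm38.p6), the only listed start of Kdm5b and, of 3 for Kdm3a, the one whose window holds a match, 5′ to 3′ along the gene, with matches to ACGTG or GCGTG on either strand in capitals. The Kdm3a sequence lies at chr6:71632918-71633167 on the minus strand and the Kdm5b sequence at chr1:134559928-134560177 on the plus strand.
Kdm3a: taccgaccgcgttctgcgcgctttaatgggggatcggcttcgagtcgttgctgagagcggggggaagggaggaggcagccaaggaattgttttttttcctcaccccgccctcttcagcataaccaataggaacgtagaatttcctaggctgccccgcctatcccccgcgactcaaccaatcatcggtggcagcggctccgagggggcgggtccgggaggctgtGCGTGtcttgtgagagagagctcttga
Kdm5b: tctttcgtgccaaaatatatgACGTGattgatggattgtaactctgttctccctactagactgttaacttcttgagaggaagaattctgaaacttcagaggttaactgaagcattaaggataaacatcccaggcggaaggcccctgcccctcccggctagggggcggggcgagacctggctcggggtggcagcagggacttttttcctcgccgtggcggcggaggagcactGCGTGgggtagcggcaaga
Kdm3a held 1 match, 27 bases before the start, and Kdm5b held 2, beginning 229 and 19 bases before it; neither window holds CACGTG, the E-box that contains ACGTG. Of all 32851 listed promoter windows of this length, 38.6% hold a match to either core and 16.6% hold ACGTG. Of the enzymes, 71 had entries, with 100 windows, of which 55.0% held either core and 24.0% ACGTG. These shares are not matched for GC content or level, and windows of the same gene were counted separately. A match is a description of the letters and not a site of binding. Hif1a, which encodes a HIF subunit, was at 148 ± 3.14 CPM in Ythdf2-KO and 151 ± 2.72 CPM in WT (SD, n = 3) and did not pass (log2 fold change -0.032; edgeR adjusted p = 0.305). Epas1, which encodes another HIF alpha subunit, had 50, 27 and 62 counts in the Ythdf2-KO libraries and 1, 12 and 5 counts in the WT libraries. It rose, at a low level, to 0.688 ± 0.232 CPM in Ythdf2-KO, against 0.0914 ± 0.0842 CPM in WT (SD, n = 3; log2 fold change 2.85 ± 0.470, SE; edgeR adjusted p = 1.70e-06).

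Of the 4 genes of the core of PRC2, the complex that methylates H3K27, 1 fell, 1 rose and 2 were not called, against 49.9% of all genes tested called. Suz12, which encodes a scaffold subunit, had 141, 143 and 143 CPM in the Ythdf2-KO libraries and 163, 165 and 164 CPM in the WT libraries. All Ythdf2-KO libraries lay below the WT libraries, a 1.15-fold fall (log2 fold change -0.20 ± 0.0241, SE; edgeR adjusted p = 7.69e-10). Ezh1, the less active of the catalytic subunits, had 37.6, 37.5 and 33.5 CPM in the Ythdf2-KO libraries and 29.0, 26.98 and 26.4 CPM in the WT libraries. All Ythdf2-KO libraries lay above the WT libraries, a 1.32-fold rise (log2 fold change 0.40 ± 0.0479, SE; edgeR adjusted p = 1.69e-09).

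Ezh2, the main catalytic subunit, had 101, 100.1 and 101 CPM in the Ythdf2-KO libraries and 102, 103 and 102 CPM in the WT libraries, close beside each other (log2 fold change -0.025 ± 0.0268, SE; edgeR adjusted p = 0.468). Eed, which encodes the subunit that reads the mark, had 50.2, 52.4 and 52.5 CPM in the Ythdf2-KO libraries and 47.4, 47.9 and 51.9 CPM in the WT libraries and overlapping groups (log2 fold change 0.073 ± 0.0378, SE; edgeR adjusted p = 0.107); it passed without WT replicate 3 (edgeR adjusted p = 0.0161) and in 5 other settings, upper-quartile factors among them (edgeR adjusted p = 0.00514). Per kilobase, Ezh2 RNA exceeded Ezh1 RNA in both groups: Ezh2 stood at 15.1 ± 0.0758 CPM per kb in Ythdf2-KO and 15.3 ± 0.128 CPM per kb in WT, and Ezh1 at 4.86 ± 0.313 CPM per kb in Ythdf2-KO and 3.69 ± 0.182 CPM per kb in WT (SD, n = 3 each). Both genes of the KDM6 family of H3K27 demethylases fell, against 25.8% of all genes tested. Kdm6b, an enzyme induced in inflammation whose mRNA has been reported as a YTHDF2 target in human cells, had 70.01, 69.03 and 69.5 CPM in the Ythdf2-KO libraries and 80.8, 76.1 and 75.4 CPM in the WT libraries (log2 fold change -0.15 ± 0.0317, SE; edgeR adjusted p = 5.45e-05). Kdm6a, its X-linked paralog, had 52.6, 53.2 and 52.6 CPM in the Ythdf2-KO libraries and 57.7, 59.9 and 56.7 CPM in the WT libraries (log2 fold change -0.14 ± 0.0345, SE; edgeR adjusted p = 7.16e-04). In both genes the groups did not overlap.

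Of 8 H3K4 methyltransferases, 5 rose, 1 fell and 2 were not called, against 24.1% higher and 25.8% lower over all genes tested. The median log2 fold change was 0.096, and the rises were at most 1.12-fold. Kmt2a, which encodes MLL1, was at 145 ± 2.55 CPM in Ythdf2-KO and 130.3 ± 3.30 CPM in WT (SD, n = 3; log2 fold change 0.16, edgeR adjusted p = 1.18e-06). Kmt2c and Kmt2d, enhancer-acting members of the same family, had log2 fold changes of 0.15 and 0.077, and Setd1a, of a COMPASS complex, 0.11. Setd7, whose mRNA has been reported as a YTHDF2 target in human bladder cancer cells, had 124, 126 and 125 CPM in the Ythdf2-KO libraries and 109, 119 and 115 CPM in the WT libraries, without overlap (log2 fold change 0.13 ± 0.0279, SE; edgeR adjusted p = 1.25e-04). Kmt2e, a family member without known catalytic activity, fell with a log2 fold change of -0.067. All 5 rises depended on the scaling: with length and GC offsets Kmt2a, Kmt2c, Setd1a and Setd7 stood at log2 fold changes of 0.0068, -0.016, 0.046 and 0.055 and did not pass, and Kmt2d was called lower, at -0.15 (edgeR adjusted p = 3.59e-06). Kmt2d was also lost without WT replicate 1 or Ythdf2-KO replicate 2 (edgeR adjusted p = 0.0850 and 0.0711), Setd1a without WT replicate 3 or Ythdf2-KO replicate 3 (edgeR adjusted p = 0.0546 and 0.144) and Kmt2e without WT replicate 2 or Ythdf2-KO replicate 2 (edgeR adjusted p = 0.121 and 0.0506) and under upper-quartile factors (edgeR adjusted p = 0.643), RLE factors (edgeR adjusted p = 0.0501), no filter or the 5 CPM filter (edgeR adjusted p = 0.202 and 0.0725). Setd1b, not called, passed without WT replicate 3 (edgeR adjusted p = 0.0195).

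The H3K9 methyltransferases split, with 2 lower, 1 higher and 3 not called of 6, a share of calls close to the 49.9% of all genes tested. Suv39h1 and Suv39h2, which trimethylate H3K9 in constitutive heterochromatin, both fell. Suv39h1 had 51.9, 50.9 and 53.6 CPM in the Ythdf2-KO libraries and 59.9, 57.6 and 58.6 CPM in the WT libraries (log2 fold change -0.17 ± 0.0347, SE; edgeR adjusted p = 5.11e-05). Suv39h2 had 16.2, 15.1 and 15.5 CPM in the Ythdf2-KO libraries and 20.1, 18.0 and 19.0 CPM in the WT libraries (log2 fold change -0.29 ± 0.0608, SE; edgeR adjusted p = 9.09e-05). Neither overlapped between groups. Ehmt1, which encodes the euchromatic enzyme GLP, rose by 0.12 (edgeR adjusted p = 0.00107), a call lost with replicate block and length and GC offsets together (edgeR adjusted p = 0.0623). Its partner Ehmt2, and Setdb1 and Setdb2, did not pass; Setdb2 did without WT replicate 2 or Ythdf2-KO replicate 3 (edgeR adjusted p = 0.0369 and 0.0363).

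Of 8 methyltransferases of H3K36, H3K79 and H4K20, 4 fell, none rose and 4 were not called, against 25.8% lower and 24.1% higher over all genes tested. The H3K36 enzymes Nsd2, Nsd3 and Setd2 had log2 fold changes of -0.13, -0.12 and -0.14, and Kmt5b, an H4K20 enzyme, -0.17. Setd2, which encodes the main H3K36 trimethylase, had 157, 161 and 163 CPM in the Ythdf2-KO libraries and 179, 182 and 170.2 CPM in the WT libraries, without overlap (edgeR adjusted p = 5.63e-06). Kmt5b had 48.5, 49.2 and 49.97 CPM in the Ythdf2-KO libraries and 53.6, 57.9 and 54.2 CPM in the WT libraries (edgeR adjusted p = 1.39e-04). Nsd1, Kmt5a, Kmt5c and the H3K79 enzyme Dot1l did not pass; Kmt5a did without Ythdf2-KO replicate 3 (edgeR adjusted p = 0.0219) and Dot1l without WT replicate 3 (edgeR adjusted p = 0.0199). Of the remaining SET-domain genes, Setd5 fell (-0.15), as did Setd3 (-0.096), which encodes the histidine methyltransferase of actin. Setd6, which encodes a methyltransferase of the NF-kappaB subunit RELA, rose to 11.3 ± 0.890 CPM in Ythdf2-KO, against 9.31 ± 0.541 CPM in WT (SD, n = 3; log2 fold change 0.28, edgeR adjusted p = 0.00268). Setd4 did not pass. The call of Setd3 was lost under upper-quartile factors (edgeR adjusted p = 0.203).

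The arginine methyltransferases changed in 3 of 8 cases, against 49.9% of all genes tested and 65.0% of those of at least 5 CPM. Prmt8, at 2.39 CPM in Ythdf2-KO and 2.38 CPM in WT, is not among the latter. Prmt6, which methylates arginine 2 of histone H3, fell 1.19-fold. It had 28.1, 27.6 and 27.96 CPM in the Ythdf2-KO libraries and 31.9, 34.0 and 33.7 CPM in the WT libraries, without overlap (log2 fold change -0.25 ± 0.0447, SE; edgeR adjusted p = 5.01e-06). Prmt2, a weakly active member, rose 1.17-fold, with 29.4, 30.2 and 32.0 CPM in the Ythdf2-KO libraries and 26.2, 25.9 and 26.4 CPM in the WT libraries (log2 fold change 0.22 ± 0.0469, SE; edgeR adjusted p = 7.74e-05). Prmt5, the main enzyme of symmetric dimethylation, fell by 0.078 on the log2 scale (edgeR adjusted p = 0.0107), a call lost without any of WT replicates 1 and 2 and Ythdf2-KO replicate 1 (edgeR adjusted p = 0.0614 to 0.0957) and under upper-quartile factors (edgeR adjusted p = 0.463) and with no filter or the 5 CPM filter (edgeR adjusted p = 0.125 and 0.0533). Prmt1, Prmt3, Prmt7, Prmt8 and Prmt9 did not pass.

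Histone acetyltransferases rose in 3 of 7 cases and fell in 1, against 24.1% higher and 25.8% lower over all genes tested. Kat6a, an H3 acetyltransferase known from leukemia fusions, had 127, 128 and 131 CPM in the Ythdf2-KO libraries and 160.5, 167 and 157 CPM in the WT libraries. All Ythdf2-KO libraries lay below the WT libraries, a 1.26-fold fall (log2 fold change -0.33 ± 0.0260, SE; edgeR adjusted p = 6.86e-15). Kat8, the main H4K16 acetyltransferase, had 17.5, 17.7 and 17.9 CPM in the Ythdf2-KO libraries and 14.3, 14.9 and 15.6 CPM in the WT libraries, a 1.18-fold rise without overlap (edgeR adjusted p = 8.86e-04). Kat2b, also called PCAF, and Kat7 rose with log2 fold changes of 0.22 and 0.15 (edgeR adjusted p = 7.03e-06 and 9.39e-06). Kat2a, Kat5 and Kat6b did not pass; Kat5 did without WT replicate 1 or Ythdf2-KO replicate 1 (edgeR adjusted p = 0.0129 and 0.0423).

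Of the deacetylases, none of the 4 of class I, the catalytic subunits of the main nuclear corepressors, was called. The shares called were 49.9% of all genes tested and 65.0% of those of at least 5 CPM, where all 4 stood. Hdac1 had 153, 152 and 153 CPM in the Ythdf2-KO libraries and 149, 152 and 152 CPM in the WT libraries, and Hdac2 had 119, 121 and 119.8 CPM in the Ythdf2-KO libraries and 122, 123.4 and 119.6 CPM in the WT libraries. Their log2 fold changes were 0.014 ± 0.0241 and -0.020 ± 0.0258 (SE; edgeR adjusted p = 0.662 and 0.554). Hdac1 can share reads with the pseudogene Hdac1-ps, which was counted at 11.1 to 12.1 CPM in Ythdf2-KO and 11.5 to 12.2 CPM in WT. Hdac3 and Hdac8 had log2 fold changes of -0.044 ± 0.0312 and 0.20 ± 0.0848 (SE; edgeR adjusted p = 0.257 and 0.0507). Hdac8 passed without WT replicate 2 or Ythdf2-KO replicate 1 (edgeR adjusted p = 0.0111 and 0.0339) and in 7 other settings, RLE factors among them (edgeR adjusted p = 0.0410), and Hdac1 passed under upper-quartile factors (edgeR adjusted p = 0.0103). At an unadjusted p under 0.05, 1 of the 4 passed, and DESeq2 and limma-voom called 0 of the 4.

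Among the 7 deacetylases of classes II and IV, 3 rose, against 24.1% of all genes tested. Hdac11, the class IV enzyme, is known as a regulator of IL10 in myeloid cells. It stood at 0.703, 0.858 and 1.28 CPM in replicates 1 to 3 of Ythdf2-KO, against 0.198, 0.0764 and 0.161 CPM in those of WT. All libraries of Ythdf2-KO were above those of WT, a 6.56-fold rise at a low level (log2 fold change 2.71 ± 0.381, SE; edgeR adjusted p = 4.96e-08), on 48, 53 and 89 counts in Ythdf2-KO and 11, 5 and 11 counts in WT. Hdac9, a class IIa enzyme, had 0.439, 0.389 and 0.606 CPM in the Ythdf2-KO libraries and 0.270, 0.244 and 0.248 CPM in the WT libraries (log2 fold change 0.91 ± 0.385, SE; edgeR adjusted p = 0.0452). Its call was lost when any library other than Ythdf2-KO replicate 2 was left out (edgeR adjusted p = 0.0710 to 0.220), with no filter and with replicate number as a block (edgeR adjusted p = 0.0703 and 0.0696), in DESeq2 and limma-voom (adjusted p = 0.0694 and 0.0534) and with length and GC offsets (edgeR adjusted p = 0.0768). Hdac6, the cytoplasmic tubulin deacetylase, rose by 0.099 (edgeR adjusted p = 0.0122), a call lost without WT replicate 2 (edgeR adjusted p = 0.0547) and with replicate block and offsets together (edgeR adjusted p = 0.0571). Hdac4, Hdac5, Hdac7 and Hdac10 did not pass.

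The sirtuins are NAD-dependent deacylases, and 2 of 7 rose and 1 fell, against 24.1% and 25.8% of all genes tested. Sirt7, a nucleolar enzyme that removes acetyl groups from H3K18, had 25.5, 24.7 and 23.1 CPM in the Ythdf2-KO libraries and 17.0, 16.7 and 20.2 CPM in the WT libraries. All Ythdf2-KO libraries were above the WT libraries, a 1.36-fold rise (log2 fold change 0.44 ± 0.0613, SE; edgeR adjusted p = 1.15e-07). Sirt2, a mostly cytoplasmic member, rose by 0.12 (edgeR adjusted p = 6.69e-04). Sirt6, a nuclear deacetylase of H3K9, fell with a log2 fold change of -0.15 (edgeR adjusted p = 0.0175), but its groups overlapped and the call was lost without any of WT replicates 1 and 3 and Ythdf2-KO replicates 2 and 3 (edgeR adjusted p = 0.0526 to 0.111) and under upper-quartile factors (edgeR adjusted p = 0.152) or with no filter (edgeR adjusted p = 0.0512). Sirt1 and the mitochondrial Sirt3, Sirt4 and Sirt5 did not pass; Sirt4 did without WT replicate 3 (edgeR adjusted p = 0.0497).

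Among 97 tested genes of the same machinery that the symbols above do not cover, 29 rose and 36 fell, together 67.0%; all 97 stood at a mean of at least 5 CPM, where 65.0% of all genes were called, and the median log2 fold change was -0.019. For each list below, the shares over all genes tested were 24.1% higher and 25.8% lower, not matched for level. Of 22 subunits of deacetylase corepressors, 10 fell and 4 rose. Sap30, of the SIN3 complex, fell 1.88-fold, to 28.3 ± 1.32 CPM in Ythdf2-KO, against 53.0 ± 1.71 CPM in WT (SD, n = 3; edgeR adjusted p = 2.67e-23). Rcor2, of the CoREST complex that carries LSD1, fell 1.71-fold, to 93.1 ± 4.77 CPM in Ythdf2-KO, against 159 ± 5.49 CPM in WT (SD, n = 3; edgeR adjusted p = 3.41e-19). Of 25 PRC2 accessory and PRC1 subunits, 9 fell and 8 rose. Mtf2, which brings PRC2 to CpG islands, and Rnf2, the main ubiquitin ligase of PRC1, fell 1.44- and 1.43-fold (edgeR adjusted p = 9.56e-15 and 3.27e-18). Of 21 other histone-modifying enzymes, 9 rose and 7 fell. Jmjd6, a JmjC hydroxylase, fell 1.60-fold and Mecom, a PR-domain transcription factor, rose 1.53-fold to 100.2 ± 2.05 CPM in Ythdf2-KO, against 65.3 ± 1.57 CPM in WT (SD, n = 3; edgeR adjusted p = 1.80e-25 and 3.45e-22). Of 12 COMPASS subunits, 5 fell and 4 rose, with Ash2l and Psip1 at -0.23 and -0.22. Of 10 DNA methylation partners, 4 fell, Zbtb33 furthest (-0.18), and 1 rose, Uhrf2 (0.38). Of 7 genes of heterochromatin protein 1 and its partners, 3 rose, Atf7ip furthest (0.29), and 1 fell, Daxx (-0.28).

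The exon-union length of the enzymes was greater in the median than over all genes tested, and ranged from 1903 bases in Setd6 to 20291 in Kmt2c. The enzymes' balance of directions depended on the scaling and on whether length and GC content, which were changed together, were entered as offsets. Their median exon-union length was 6016 bases against 3652 over all genes tested. The enzymes called lower had a median of 8225 bases and a GC content of 47.5%, and those called higher 5823 bases and 51.9%. Over all genes tested the order of length was the other way. Genes called lower had a median of 4221 bases and a GC content of 48.7%, and those called higher 4782 bases and 50.2%. With TMM factors 47.9% of the enzymes' calls were higher in Ythdf2-KO (48.3% of the calls over all genes). With offsets for length and GC content 17 enzymes were higher and 38 lower (30.9% of the enzymes' calls higher, against 47.6% over all genes), on a background of 50.5% of all genes called, 24.0% higher and 26.5% lower. The offsets called lower Dnmt1, Tet3, Kdm2b, Kdm5a, Kmt2b, Setd1b, Setdb1, Dot1l, Kmt5a, Kat6b, Hdac4 and Hdac5, and higher Eed and Hdac8, none of which passed with TMM factors. With upper-quartile factors 32 were higher and 20 lower (61.5% against 59.2% over all genes), on a background of 49.8% of all genes called, 29.5% higher and 20.3% lower. Of the 48 calls, 31 were made in the same direction under each of the 17 alternatives in which the gene was tested, 11 higher and 20 lower. They include Dnmt3l, Tet1, Tet2, Hdac11, Kdm7a, Kdm3a, Kdm4a, Kdm4b, Kdm2a, Kdm5b, Ezh1, Suz12, Kat6a and Sirt7.

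**Figure D4:**
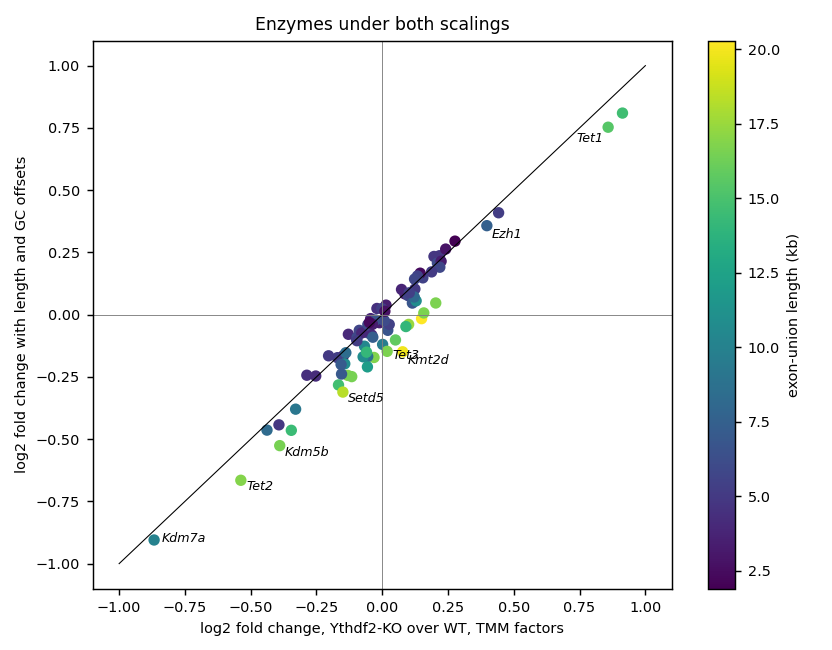
Log2 fold change (Ythdf2-KO over WT) of the enzymes with length and GC offsets (y axis) against that with TMM factors (x axis), coloured by exon-union length in kb; Dnmt3l and Hdac11 lie outside the range drawn, and the line marks equal values. The genes of greatest exon-union length lie below the line, as Kmt2d does at 0.077 with TMM factors and -0.15 with the offsets.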

How the data were processed

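Per the labels' protocols, poly(A) RNA from cultured cells was fragmented and made into libraries with the KAPA RNA HyperPrep kit and read from both ends. The authors used fastp 0.23.2, HISAT2 2.2.1 and featureCounts 2.0.6 with build GRCm39, per the submitters' processing notes. The deposited values are whole counts per gene symbol, not normalized; the sources used here do not give how strand and multiply aligned reads were treated.

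The tests ran in edgeR 4.0.16 (R 4.3.3): default filterByExpr (17718 genes), TMM factors, robust quasi-likelihood fit on all 6 libraries, Benjamini-Hochberg adjustment over all genes tested, and calls at an adjusted p under 0.05. SEs are the log2 fold change over the root of the F statistic. Levels are TMM-scaled CPM as mean ± SD; values between genes are divided by GENCODE exon-union length (GRCm38, joined by symbol). Floors (3 counts) cover counting error only, while SEs and SDs also include the spread between these libraries. Simulated counts (17718 genes, 50 changed at each fold) recovered 74% of genes changed 1.2-fold and 100% of those changed 1.5-fold or more, beside 9 false calls. Every simulated gene had the same spread between libraries (coefficient of variation beyond counting error 3.48%), and no gene as low as Hdac9 or Hdac11 was changed. The recovery therefore does not hold for genes with a larger spread or a lower level. Between libraries of a genotype, chi-square per degree of freedom was 4.03 to 13.3, above sampling noise. The alternatives also used DESeq2 1.42.0, limma 3.58.1 and mgcv 1.9.3, and figures matplotlib 3.10.9. The enzymes, lists and tests were chosen with earlier results of these data known. The rule for named genes took Ythdf2, enzymes called and at least 1.5-fold apart, the furthest called enzyme of each role, both of opposite paralogs, the PRC2, DNMT, TET and H3K27 demethylase genes, the top 2 called of each partner list, and the members of any class of 5 or fewer; other values per library were chosen after they were seen. Protein sequences were not used here.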

Additional observations from a re-analysis of the deposited data

How the results depend on the processing

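The genome-wide counts and the counts of partner genes stayed within 1.5 times under every alternative run. Among the enzymes, 38 were lower with length and GC offsets, and 15 higher with the replicate block together with these offsets. Leaving out each library in turn gave 19 to 23 enzymes higher and 23 to 26 lower, 0 to 1 class I deacetylases called, 1 to 3 of classes II and IV, and 1 to 2 amine oxidases. Class I deacetylases called numbered 2 with upper-quartile scaling, and 1 with RLE scaling, no filter, the 5 CPM filter, TMM factors computed without mitochondrial genes and the top 20, and both sets of length and GC offsets. Of classes II and IV, 1 was called with the 5 CPM filter and at an adjusted p under 0.01; 1 amine oxidase was called with upper-quartile scaling and 1 TET gene with the 5 CPM filter. That filter left out 4 called enzymes, Dnmt3l, Tet1, Hdac9 and Hdac11.

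Signs turned as follows, on the log2 scale. Upper-quartile scaling gave Hdac3 0.0096, Hdac2 0.034, Ezh2 0.029, Hif1a 0.022 and Dnmt1 0.018, none of them called. Length and GC offsets, without and with the replicate block, gave Hdac2 0.025 and 0.025, Kmt2c -0.016 and -0.016, Kdm3b -0.048 and -0.048, Kmt2d -0.15 and -0.15 and Tet3 -0.15 and -0.15, the last 2 genes called lower. Hdac2 was 0.0039 with the 5 CPM filter. Leaving out each library in turn, Hdac2 ranged from -0.031 to 0.0017, positive without WT replicate 2, and Tet3 from -0.0026, without Ythdf2-KO replicate 2, to 0.052. The cause was not tested.

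Same-numbered libraries did not deviate together (correlations of 0.011, -0.037 and -0.052 for numbers 1 to 3). With 3 libraries per group, these values cannot show whether same-numbered libraries were handled together, and the main fit does not pair them. With the replicate block 47 enzymes were called, 22 higher and 25 lower, Hdac9 being the loss (edgeR adjusted p = 0.0696). A minimum mean of 20 counts gave the same 23 and 25. Depth limits Hdac9, Hdac11, Prmt8 and Tet1, which stand below 3 CPM in both groups.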

Other observations

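Exons of 13 of the 86 enzyme genes overlap those of another tested protein-coding gene in GENCODE annotation. Of the 13, 7 were called, beside 55.8% of all 86 enzymes and 49.9% of all genes tested. Of these 7, Dnmt3l alone shared exonic overlap with a gene, Aire, that changed in the same direction; Tpmt, which overlaps Kdm1b outside exons, rose with it (0.33; edgeR adjusted p = 0.00117). Dclre1c rose where Suv39h2 fell (log2 fold change 0.48; edgeR adjusted p = 2.66e-07), Nfkbib fell where Sirt2 rose (-0.43; edgeR adjusted p = 3.09e-09), and Mafg fell where Sirt7 rose (-0.22; edgeR adjusted p = 6.43e-09). Srpk2 rose beside Kmt2e (0.074; edgeR adjusted p = 0.0465), Dek fell beside Kdm1b (-0.065; edgeR adjusted p = 0.0415), and Nelfa, beside Nsd2, did not pass (0.067; edgeR adjusted p = 0.107). Of genes within 3000 bases without overlap, Pcyt2 next to Sirt7 rose by 0.91 (edgeR adjusted p = 1.82e-13) and Cntnap1 next to Ezh1 by 0.70 (edgeR adjusted p = 1.80e-09), while Ndrg4 next to Setd6, which rose, fell by 0.80 (edgeR adjusted p = 1.58e-17) and Sgo1 next to Kat2b, which rose, by 0.45 (edgeR adjusted p = 6.98e-14). These neighbours were chosen after their values were seen.

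GGACT is a common form of the m6A consensus. The longest transcript of each enzyme gene held a median of 1.07 copies per kb in those higher in Ythdf2-KO, 1.25 in those lower and 1.09 in those not called. Over all genes tested the medians were 1.04, 1.03 and 0.953 in the same order. The m6A sites themselves were not measured in these libraries.

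In the promoter windows, a match to ACGTG or GCGTG was held by 50% of 28 windows of enzymes higher in Ythdf2-KO, 61.5% of 26 windows of those lower and 54.3% of 46 windows of those not called.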
